A study of Mus musculus with 9 samples.

Results

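The cell cycle and mitosis genes described here are 44 of the 17846 genes listed for mouse liver. They were chosen by name as genes known for their part in DNA replication or in cell division, with earlier results of these data known. Of the 44 genes, 17 work in S phase or at the entry into it and 24 work in G2 and mitosis (G2/M). The other 3, Ccnd1, Cdkn1a and Stmn1, were placed in neither phase. Liver mRNA was sequenced from 9 male wild type mice, labelled C57/BL and given as C57BL/6 in the study's methods, with 3 mice in each of the groups named Control, NASH and NASH+Exercise and a library per mouse. Control mice ate normal chow and were sedentary. NASH mice ate the Ath diet, which contains cholesterol and cholate and was used to induce nonalcoholic steatohepatitis, for 20 weeks and were sedentary. NASH+Exercise mice (EXE+Ath diet) ate the same diet for the same time and ran on a treadmill during the last 8 weeks, from 20 weeks of age and after 12 weeks of diet. Training was measured on the Ath diet only. Mice are named by the replicate numbers in their labels, which are not shared between groups.

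A cell that divides first passes G1, where cyclin D1 and its kinases inactivate the retinoblastoma protein and release E2F transcription factors. E2F target genes supply the helicase, clamp and nucleotides for DNA synthesis in S phase, and a later wave of genes, driven by B-MYB and FOXM1, supplies the cyclins, kinases and motors of mitosis. Hepatocytes in a healthy adult liver are almost all quiescent, and they can enter the cycle again after injury, while immune, stellate and biliary cells may also divide in an injured liver.

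The promoters of some genes that rose in NASH and of 1 that did not are shown first, because S phase and G2/M genes are known to be timed by different short promoter elements. The E2F site is bound by E2F factors, and the cell cycle genes homology region (CHR) is bound by the DREAM and MuvB complexes. In each line, the 200 bases just before a RefSeq start of transcription are given 5′ to 3′ on the strand of the gene (GRCm38.p6). For Cdc6 this start lies downstream of the gene's first base, chr11:98907709, so its stretch is inside the gene. The stretches of Mki67, Top2a and Mcm5 are partly inside the gene. Capitals mark the CHR letters TTTGAA or TTCGAA and the E2F letters TTTCCCGC, TTTGGCGC, TTTCGCGC or TTTGCCGC, on either strand. TTCGAA reads the same on both strands, and E2F matches on the 2 strands may overlap. Cdk1, Mki67, Top2a and Cdc20 are G2/M genes with CHR letters in this stretch, and Ccnb1 is a G2/M gene without them. Mcm6, Mcm5 and Cdc6 are S phase genes with E2F letters, and Pcna is one without them.
Cdk1: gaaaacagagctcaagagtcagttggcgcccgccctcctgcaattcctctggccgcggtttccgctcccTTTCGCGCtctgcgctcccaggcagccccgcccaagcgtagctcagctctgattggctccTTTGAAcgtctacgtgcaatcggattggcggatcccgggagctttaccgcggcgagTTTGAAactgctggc
Mki67: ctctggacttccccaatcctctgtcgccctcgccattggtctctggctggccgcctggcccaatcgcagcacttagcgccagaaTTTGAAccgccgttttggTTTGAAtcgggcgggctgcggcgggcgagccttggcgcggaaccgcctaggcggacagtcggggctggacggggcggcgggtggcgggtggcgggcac
Top2a: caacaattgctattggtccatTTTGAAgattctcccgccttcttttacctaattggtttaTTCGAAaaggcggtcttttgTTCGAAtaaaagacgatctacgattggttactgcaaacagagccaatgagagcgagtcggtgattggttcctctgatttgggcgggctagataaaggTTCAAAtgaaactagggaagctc
Cdc20: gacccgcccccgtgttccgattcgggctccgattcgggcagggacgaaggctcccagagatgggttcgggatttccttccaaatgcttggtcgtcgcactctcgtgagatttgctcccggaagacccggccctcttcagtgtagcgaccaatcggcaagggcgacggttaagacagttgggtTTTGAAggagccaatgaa
Ccnb1: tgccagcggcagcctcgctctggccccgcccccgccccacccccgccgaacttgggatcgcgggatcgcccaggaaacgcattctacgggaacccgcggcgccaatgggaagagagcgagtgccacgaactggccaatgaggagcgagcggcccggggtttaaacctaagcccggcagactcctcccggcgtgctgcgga
Mcm6: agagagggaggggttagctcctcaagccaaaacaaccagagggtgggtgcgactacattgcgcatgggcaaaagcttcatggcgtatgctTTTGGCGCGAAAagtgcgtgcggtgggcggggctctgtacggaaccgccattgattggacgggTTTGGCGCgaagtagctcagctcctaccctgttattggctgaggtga
Mcm5: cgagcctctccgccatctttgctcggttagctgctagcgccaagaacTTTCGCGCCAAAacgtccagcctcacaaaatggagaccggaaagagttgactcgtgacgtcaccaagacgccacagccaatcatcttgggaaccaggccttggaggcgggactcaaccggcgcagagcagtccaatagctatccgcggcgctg
Cdc6: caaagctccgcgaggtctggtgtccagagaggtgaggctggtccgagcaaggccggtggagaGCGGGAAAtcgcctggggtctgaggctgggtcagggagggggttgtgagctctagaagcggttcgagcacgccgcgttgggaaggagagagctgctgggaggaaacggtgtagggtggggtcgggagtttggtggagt
Pcna: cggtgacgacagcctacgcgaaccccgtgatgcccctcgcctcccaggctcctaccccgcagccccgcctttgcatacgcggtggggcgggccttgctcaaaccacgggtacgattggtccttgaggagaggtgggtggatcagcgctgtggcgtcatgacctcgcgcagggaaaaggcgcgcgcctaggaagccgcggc
The stretches lie at chr10:69352913-69353112 on the minus strand (Cdk1), chr7:135716380-135716579 on the minus strand (Mki67), chr11:99024190-99024389 on the minus strand (Top2a), chr4:118437344-118437543 on the minus strand (Cdc20), chr13:100786487-100786686 on the minus strand (Ccnb1), chr1:128359706-128359905 on the minus strand (Mcm6), chr8:75109309-75109508 on the plus strand (Mcm5), chr11:98907951-98908150 on the plus strand (Cdc6) and chr2:132253181-132253380 on the minus strand (Pcna).

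Of the 44 genes, 35 had a promoter in the RefSeq table, 39 promoters in all, each of 300 bases from 250 before to 50 after the start. CHR letters were present in 16 of 20 promoters of G2/M genes (80%) and in 3 of 17 promoters of S phase genes (17.6%, those of Cdc45, Mcm2 and Mcm7), against 19.2% of all 32851 promoters. E2F letters were present in 6 of 17 S phase promoters (35.3%) and in 1 of 20 G2/M promoters (5.0%, that of Cdk1), against 2.26% of all promoters. The E2F letters were found at Cdc6, Mcm3, Mcm5, Mcm6, Mcm7 and Uhrf1. CCAAT, the core of the site of NF-Y, was in 90% of G2/M and 70.6% of S phase promoters, against 37.4% of all, and CHR and CCAAT letters stood together in 80% of G2/M promoters against 7.52% of all. These shares count windows and not genes, and the overlapping windows of Prc1, each with CHR and CCAAT letters, were counted separately. A match of letters was counted as letters and not as a bound site, and a window without them says only that they are not in these 300 bases. These letters were not used to choose the genes or to place them in a phase.

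**Figure D1:**
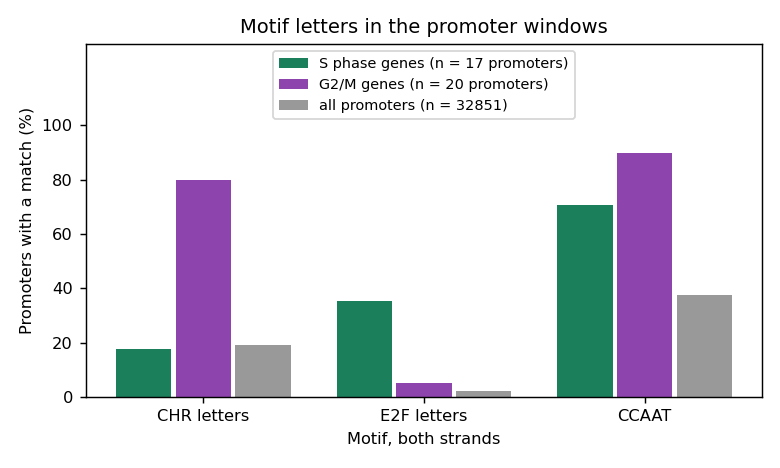
Share of promoter windows (y axis, percent) that hold the CHR letters, the E2F letters or CCAAT on either strand, for 17 promoters of S phase genes, 20 promoters of G2/M genes and all 32851 promoters of the table. CHR letters were found in 80% of the G2/M windows and E2F letters in 35.3% of the S phase windows.

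The total count per library was between 20085976 and 22495408, and 1 CPM (counts scaled by library size after TMM) corresponded to 17.99 to 25.8 reads. A gene was tested when it passed a filter on low counts, which needed about 0.465 CPM in 3 mice. Of the 44 genes, 43 passed, and Cdkn3 did not. In Control liver, most of the genes had low levels, and 23 of the 44 were over the filter value in all 3 mice. On the TPM scale, which divides by transcript length and so lets genes be compared, the median of the 44 Control means was 0.433, and 31 of the genes were under 1 TPM. The G2/M genes had the lower levels, with a median Control mean of 0.195 TPM and 22 of 24 genes under 1 TPM, while the S phase genes had a median of 0.88 TPM. Among S phase genes, Pcna, the sliding clamp of DNA polymerase, had the highest Control mean (25.7 TPM). Cdkn1a, which encodes the CDK inhibitor p21, had the highest of all 44 genes (44.8 TPM).

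NASH liver was compared with Control liver to ask which part of the cycle program differs on the Ath diet. By edgeR (adjusted p under 0.05 and a change of more than 1 on the log2 scale), 29 of the 44 genes were higher in NASH and 0 were lower, where 15.3% of the 13619 genes tested were higher and 3.03% lower. The G2/M genes made up most of the change, with 20 of 24 called higher, against 8 of 17 S phase genes, and Ccnd1. Fitted without the filter, so that all 44 were included, the median log2 fold change was 2.16 for G2/M and 0.61 for S phase genes, against 0.00183 for all 17810 genes that could be fitted. A gene that is nearly silent in Control passes the filter only if it is high elsewhere, so the counts were also read where Control alone would have passed it. There, 12 of 23 genes were called, 6 of 7 in G2/M and 5 of 13 in S phase. In the fit without the filter 30 of 44 genes were called, 21 of 24 in G2/M and 8 of 17 in S phase. The share of all genes called is not given for these counts, and the 15.3% is that of the main fit. All NASH mice were above all Control mice for 32 of the 43 genes tested, 22 in G2/M and 9 in S phase, where 27.4% of all genes had this order.

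**Figure D2:**
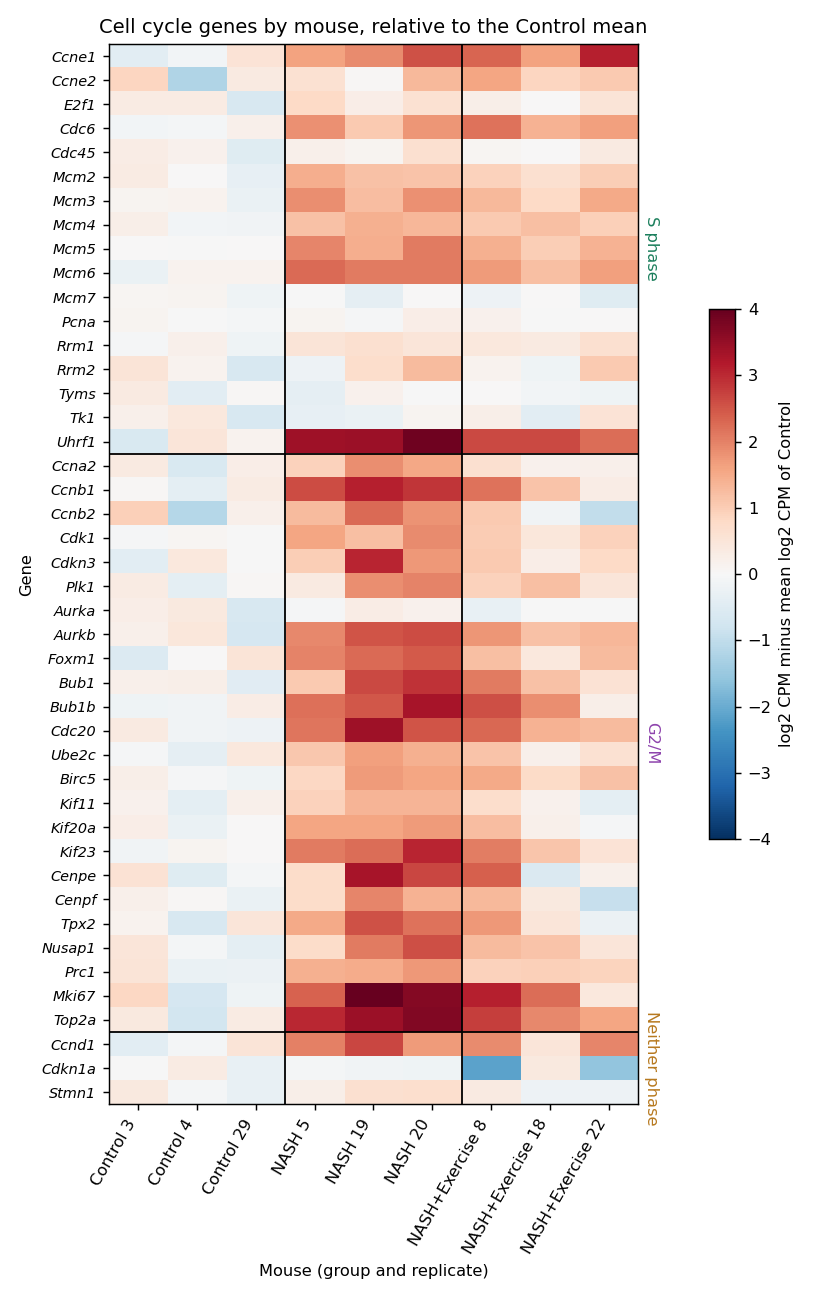
Log2 CPM of the 44 genes (rows) in each of the 9 mice (columns), as the difference from the mean of the 3 Control mice (color scale, log2 units). The G2/M rows are higher in NASH mice, least so in NASH replicate 5, and lie between Control and NASH in most NASH+Exercise mice. Rows such as Pcna, Tyms, Mcm7 and Aurka hardly differ from Control in this CPM after TMM. In the deposited TPM, all NASH mice were above all Control mice for Pcna, Mcm7 and Aurka but not for Tyms.

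Among the regulators of G1, Ccnd1, the D-type cyclin that starts the cycle in hepatocytes, was 7.62, 9.73 and 14.95 CPM in the 3 Control mice. It was 42.3, 66.1 and 34.2 CPM in NASH and 38.3, 14.5 and 40.5 CPM in NASH+Exercise. All NASH mice were above all Control mice, and 1 trained mouse, replicate 18, was at the Control level. The change in NASH was 4.41-fold (log2 2.14 ± 0.42, SE; adjusted p = 0.00383 by the quasi-likelihood test of edgeR, adjusted after Benjamini and Hochberg). Cdkn1a was 57.3, 72.2 and 47.0 CPM in Control and 55.0, 52.5 and 51.3 CPM in NASH, and did not pass the test (log2 fold change -0.15 ± 0.53, SE). In NASH+Exercise it was 13.0, 76.2 and 19.5 CPM. Replicates 8 and 22 were below every other mouse, and replicate 18 was above them all, so the trained group was split. The spread within it left the difference from NASH (log2 -0.55 ± 0.54) and from Control (-0.70 ± 0.54) below the test's threshold. Without replicate 18, Cdkn1a was called lower against Control (log2 -1.86, adjusted p = 0.000536 by edgeR), the only one of 20 alternatives in which it was called.

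Of the 3 genes for entry into S phase, only Ccne1 was called. Ccne1, which encodes cyclin E1, the partner of CDK2, was 0.161, 0.222 and 0.408 CPM in Control, 0.956, 1.16 and 1.91 CPM in NASH and 1.61, 0.944 and 2.88 CPM in NASH+Exercise. Both Ath diet groups lay above Control without overlap (log2 fold change 2.31 ± 0.55 in NASH and 2.74 ± 0.54 in NASH+Exercise, SE; adjusted p = 0.00775 and 0.00397 by edgeR's quasi-likelihood test). Ccne2, the paralog, was 0.751, 0.111 and 0.51 CPM in Control, 0.623, 0.388 and 1.06 CPM in NASH and 1.31, 0.755 and 0.877 CPM in NASH+Exercise, so NASH and Control overlapped. E2f1, a transcription factor of the S phase program, was 4.24, 4.28 and 2.14 CPM in Control, 5.94, 4.07 and 5.27 CPM in NASH and 4.02, 3.45 and 4.92 CPM in NASH+Exercise. In this CPM after TMM its groups overlapped (log2 0.52 ± 0.28 in NASH). In the deposited TPM all NASH mice (3.23 to 4.27) were above all Control mice (1.34 to 2.31). E2f1 was called in NASH against Control in 0 of 20 alternatives.

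The replication genes fell into risers and genes that did not pass the test. MCM2 to MCM7 form the ring-shaped helicase that unwinds DNA, and the transcripts of all but Mcm7 rose. Mcm6 was 1.45, 1.95 and 1.94 CPM in Control, 8.85, 7.68 and 7.69 CPM in NASH and 5.94, 4.20 and 5.75 CPM in NASH+Exercise, with no overlap among the 3 groups. Its log2 fold change in NASH was 2.18 ± 0.21 (SE; adjusted p = 3.41e-05 by edgeR's quasi-likelihood test), the smallest p of the 44 genes. Mcm2 was 2.52, 2.002 and 1.58 CPM in Control, 5.69, 4.66 and 4.55 CPM in NASH and 3.88, 3.16 and 4.05 CPM in NASH+Exercise, again with separate groups, at log2 1.29 ± 0.23 in NASH. Mcm5 (1.93), Mcm3 (1.70) and Mcm4 (1.34) rose by similar log2 fold changes. Mcm7 did not pass the test (-0.12 ± 0.16), although it had the highest mean TPM of the helicase genes over the 9 mice (10.3). Cdc6, which loads the helicase on origins, rose from 3 or fewer reads per Control mouse, 7 in all, to 40 reads in NASH, a ratio of 4.38 with a 95% counting interval of 1.94 to 11.6. DESeq2 on the 6 mice of the comparison did not call Cdc6 (log2 2.11, adjusted p = 0.0631). Cdc45, a cofactor of the active helicase, did not pass the test (log2 0.31 ± 0.31).

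Pcna was 23.1, 21.6 and 20.3 CPM in Control, 23.4, 20.7 and 26.1 CPM in NASH and 24.1, 21.2 and 22.03 CPM in NASH+Exercise. After TMM the groups overlapped, and the log2 fold change in NASH was 0.11 ± 0.12, the smallest SE of the 43 genes tested. In the deposited TPM, which are not scaled by TMM, all NASH mice (35.8 to 39.6) were above all Control mice (22.1 to 27.7). The TMM factors were 0.800 to 0.976 in Control and 1.09 to 1.23 in NASH, so the order of the Pcna values depends on the scaling. Pcna was called in 0 of 20 alternatives. Of the genes of nucleotide synthesis 0 of 4 were called: Tyms, Tk1 and Rrm2 did not pass the test, and Rrm1 passed the adjusted p but not the fold (log2 0.55 ± 0.16, adjusted p = 0.0193 by edgeR). Rrm2, the regulated subunit of ribonucleotide reductase, was 4.78, 3.67 and 2.09 CPM in Control, 2.91, 5.51 and 8.08 CPM in NASH and 3.71, 2.93 and 6.92 CPM in NASH+Exercise. Tk1, thymidine kinase, was 16.9, 19.7 and 9.24 CPM in Control, 11.6, 12.2 and 15.6 CPM in NASH and 17.2, 10.8 and 21.4 CPM in NASH+Exercise. The groups overlapped for both genes. The 4 S phase genes with the highest mean TPM over all 9 mice, Pcna (30.8), Tk1 (18.6), Tyms (10.7) and Mcm7 (10.3), were all among those not called.

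Shared exons and pseudogenes touch these genes. Tk1, Mcm7, Cdc45 and Ccne2 share exon bases with a protein-coding neighbor (Afmid, Ap4m1 and Cops6, Ufd1 and Ints8), as do 12 of the 44 genes, mostly on the opposite strand. Strand use in the counting was not given in the sources used here, so reads in the shared bases cannot be told apart. The part of a gene's exon bases shared with a given neighbor ran from 2.09% (Foxm1) to 31.8% (Kif20a). Pcna, Tyms, Ccnb1 and Stmn1 have processed pseudogenes, whose reads may be mixed with theirs. Left to the 13 S phase genes without a shared exon, 8 remained called and the median log2 fold change in NASH was 1.34, and of 17 such G2/M genes 13 were called.

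Uhrf1, which brings the maintenance DNA methyltransferase to newly copied DNA, had the largest log2 fold change of the 44 genes. It was 0.0537, 0.222 and 0.153 CPM in Control, 2.24, 2.29 and 3.23 CPM in NASH and 1.31, 1.32 and 0.975 CPM in NASH+Exercise. The 3 groups did not overlap. The reads were 8 in Control and 189 in NASH, a ratio of 18.1 with a 95% counting interval of 9.002 to 42.5, and the adjusted p was 4.16e-05 by edgeR's quasi-likelihood test.

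Among the mitotic cyclins and kinases, 6 of 9 were called higher in NASH. Cdk1, the kinase that drives entry into mitosis, was 0.698, 0.778 and 0.714 CPM in Control, 2.37, 1.78 and 2.93 CPM in NASH and 1.57, 1.04 and 1.46 CPM in NASH+Exercise. The 3 groups were separate, at log2 1.68 ± 0.30 in NASH. Ccnb1, cyclin B1, the partner of CDK1, was 0.107, 0.0556 and 0.153 CPM in Control, 1.08, 1.59 and 1.32 CPM in NASH and 0.786, 0.33 and 0.146 CPM in NASH+Exercise. The lowest trained mouse was within the Control range. In reads the rise in NASH was from 6 to 98, a ratio of 12.5 with a 95% counting interval of 5.55 to 34.9. Ccna2, cyclin A2, was 1.40, 0.667 and 1.33 CPM in Control, 2.12, 4.11 and 3.36 CPM in NASH and 1.75, 1.23 and 1.27 CPM in NASH+Exercise. All trained mice were below all NASH mice, and 2 of them were within the Control range.

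Ccnb2, cyclin B2, was 1.02, 0.167 and 0.561 CPM in Control, 1.29, 2.68 and 1.91 CPM in NASH and 1.09, 0.425 and 0.195 CPM in NASH+Exercise. All NASH mice were above both other groups, but the log2 fold change against Control, 1.74 ± 0.62, missed the threshold (adjusted p = 0.0503 by edgeR's quasi-likelihood test). It was called higher in 12 of 20 alternatives, whose adjusted p ranged from 0.0117 to 0.363. Foxm1, a transcription factor of the G2/M program, rose by log2 2.37 ± 0.38, Aurkb, the kinase of the chromosomal passenger complex, by 2.67 ± 0.43, and Plk1, polo-like kinase 1, by 1.67 ± 0.48, a call that was lost without Control replicate 4 or NASH replicate 19 or 20. Aurka, the centrosomal Aurora kinase, did not pass the test (log2 0.08 ± 0.27), at 1.89 to 4.003 CPM in Control and 2.95 to 3.73 CPM in NASH. It had the highest Control TPM of the G2/M genes (2.43), and in TPM all NASH mice (3.04 to 4.23) were above all Control mice (1.68 to 2.88). Cdkn3, a phosphatase that acts on CDK1 and CDK2, had 6 reads in Control and 59 in NASH, a ratio of 7.54 with a 95% counting interval of 3.26 to 21.4, and was not tested.

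The genes of the spindle checkpoint and the anaphase-promoting complex, Bub1, Bub1b, Cdc20 and Ube2c, rose in NASH, as did Birc5, which encodes survivin. Bub1, a checkpoint kinase, was 0.0537, 0.0556 and 0 CPM in Control, 0.166, 0.698 and 0.85 CPM in NASH and 0.436, 0.189 and 0.0975 CPM in NASH+Exercise. All NASH and all trained mice were above all Control mice. With 2 reads in Control and 42 in NASH the ratio was 16.1, and its 95% counting interval ran from 4.19 to 137. Cdc20 (log2 3.22) and Bub1b (3.16) had larger fitted changes than Birc5 (1.47) and Ube2c (1.43).

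Of the 9 genes of the spindle, kinetochore and midzone, 7 were called higher. The largest change was that of Cenpe, a kinetochore motor, which was 0.215, 0.0556 and 0.102 CPM in Control, 0.249, 1.94 and 1.23 CPM in NASH and 1.004, 0.0472 and 0.146 CPM in NASH+Exercise. Its NASH replicate 5 was hardly above Control, and its call (log2 3.14 ± 1.09, adjusted p = 0.0466 by edgeR) was lost without Control replicate 3, 4 or 29 or NASH replicate 19 or 20. Kif23 (log2 2.82), Tpx2 (2.23), Nusap1 (2.16), Kif20a (1.75), Prc1 (1.58) and Kif11 (1.25), motors and binding proteins of spindle microtubules, also rose. Cenpf (log2 1.70 ± 0.62, adjusted p = 0.0548 by edgeR) and Stmn1, which destabilizes microtubules in many cell types (0.51 ± 0.23), were not called.

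Mki67 and Top2a are the common markers of cycling cells. Mki67 was 0.805, 0.222 and 0.357 CPM in Control, 2.49, 10.9 and 6.38 CPM in NASH and 4.23, 2.27 and 0.585 CPM in NASH+Exercise. Top2a, which untangles sister chromatids, was 0.483, 0.167 and 0.459 CPM in Control, 3.45, 4.54 and 5.61 CPM in NASH and 2.84, 1.56 and 1.22 CPM in NASH+Exercise. All NASH mice exceeded all Control mice for both genes, which rose by log2 3.82 ± 0.81 and 3.59 ± 0.44 (adjusted p = 0.00559 and 0.000148 by edgeR's quasi-likelihood test). In NASH+Exercise the top mouse of Mki67, replicate 8, was above the lowest NASH mouse, and the lowest, replicate 22, was within the Control range.

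**Figure D3:**
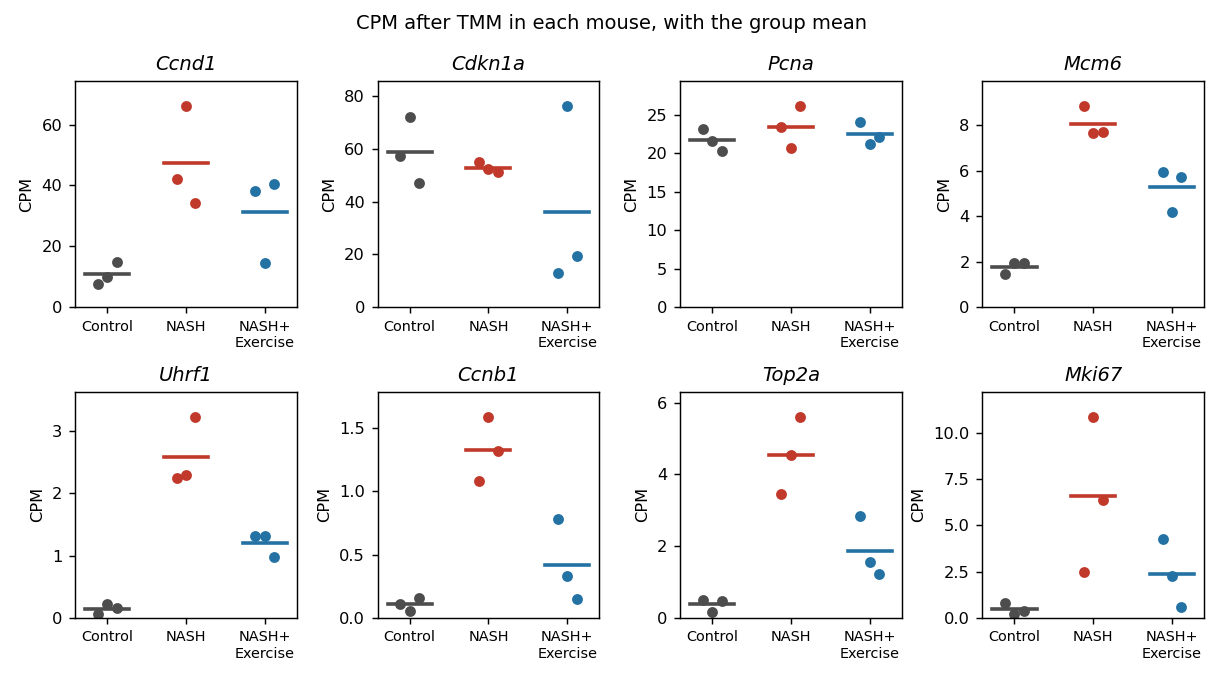
CPM (y axis, linear, a scale for each gene) of Ccnd1, Cdkn1a, Pcna, Mcm6, Uhrf1, Ccnb1, Top2a and Mki67 in the 3 mice of each group (points), with the group mean (line). Mcm6 and Uhrf1 have 3 separate groups, Pcna has none, and in Cdkn1a 2 of the 3 trained mice lie below all others.

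NASH+Exercise was compared with NASH to ask how training was related to these genes on the same diet. This comparison uses the same NASH mice as the one above, so its changes and those of NASH against Control are not independent. By edgeR, 0 of 43 genes tested were called, where 0.14% of all genes were called in either direction, and the smallest adjusted p was 0.141 (Foxm1). At an unadjusted p under 0.05, 19 of the 43 were lower and 0 higher, 15 of them in G2/M, 3 in S phase (Mcm5, Mcm6 and Uhrf1) and Stmn1, where 10.7% of all genes were lower by that measure. DESeq2 on the 6 mice called 3 genes lower, Ccna2, Foxm1 and Top2a (log2 fold change -1.13, -1.26 and -1.22, adjusted p = 0.0495, 0.0380 and 0.0236), where it called 0.937% of all genes lower. Ccna2 and Foxm1 are among the genes with a shared exon. Results of this comparison are given below as values.

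Fitted without the filter, the log2 fold change in NASH+Exercise against NASH was below 0 for 24 of 24 G2/M genes and 13 of 17 S phase genes. The filter does touch this direction, as 6 G2/M genes were over its value in 3 mice of the NASH group only. The medians without the filter were -1.10 for G2/M and -0.16 for S phase genes, against -0.03 for all genes, and 54.9% of all genes tested were below 0. The trained mice were below all NASH mice for 11 G2/M and 4 S phase genes, where 14.9% of all genes had this order. The largest fitted changes were those of Ccnb2 (-1.75 ± 0.61, SE), Ccnb1 (-1.63 ± 0.48), Cenpe (-1.47 ± 0.87) and Mki67 (-1.47 ± 0.67). The highest were those of Ccne2 (0.51 ± 0.52) and Ccne1 (0.43 ± 0.43), the cyclins of the entry into S phase, and of Tk1 (0.32 ± 0.30) and Cdc6 (0.23 ± 0.38).

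**Figure D4:**
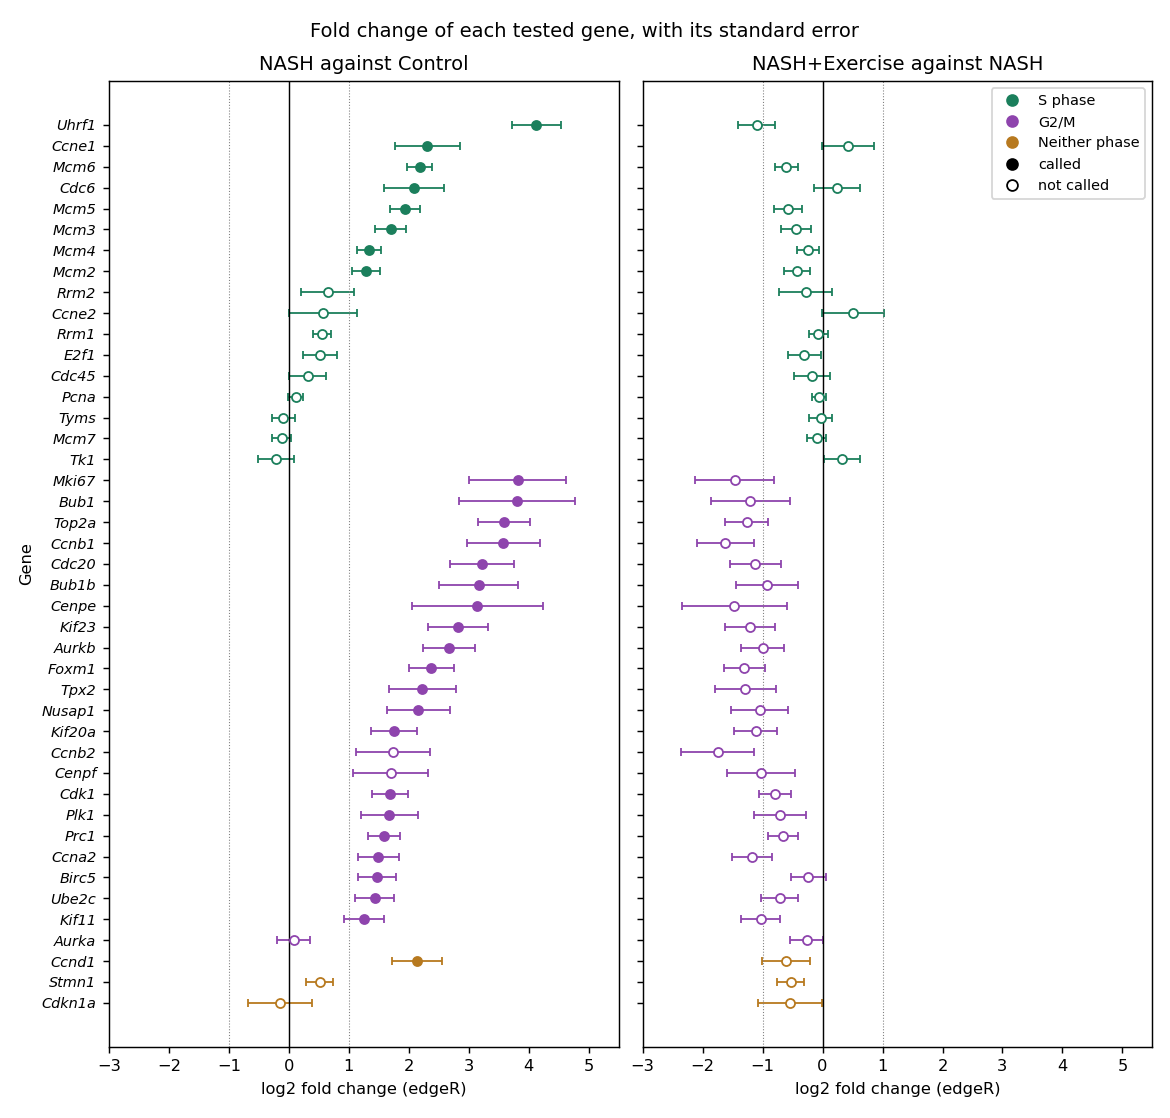
Log2 fold change (x axis) with its standard error (bars) of the 43 genes tested (rows, ordered within phase by the change in NASH), for NASH against Control (left) and NASH+Exercise against NASH (right), which share the NASH mice. Filled points were called by edgeR, and dotted lines mark a log2 fold change of 1 in either direction. On the left 29 genes are filled, and on the right 0.

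Against Control, NASH+Exercise had 14 genes called higher and 0 lower, where 10.4% of all genes were higher and 3.07% lower. The share called was here the larger among S phase genes: 7 of 17 S phase genes (Ccne1, Cdc6, Mcm3, Mcm4, Mcm5, Mcm6 and Uhrf1) but 6 of 24 G2/M genes (Aurkb, Birc5, Bub1b, Cdc20, Kif23 and Top2a) were called, beside Ccnd1. Mcm6 rose by log2 1.57 ± 0.21 and Uhrf1 by 3.03 ± 0.44, while Ccna2 (0.32 ± 0.36), Kif11 (0.22 ± 0.35) and Ccnb2 (-0.01 ± 0.69) did not pass the test. The medians without the filter were 0.85 for S phase and 1.06 for G2/M genes, so the lower share of G2/M calls did not go with a lower median. The G2/M calls depended on single mice, most of all on NASH+Exercise replicate 8. Without NASH+Exercise replicate 8, the highest of its group in most G2/M genes, 1 of 24 was called (Top2a), and the count over all 44 genes fell from 14 to 8. Without Control replicate 4 or 29, 3 of the 24 were called, and without Control replicate 3 the calls of Aurkb, Bub1b and Kif23 were lost. The 7 S phase calls and Top2a were kept in all 9 fits that left out a mouse, and Ccnd1 lost its call without Control replicate 3 or 4 or NASH+Exercise replicate 8 or 22. Among the genes given by mouse, Mki67 gained a call without NASH+Exercise replicate 22 or NASH replicate 5, and Ccnb1 without NASH+Exercise replicate 22. Cdk1 gained a call without NASH+Exercise replicate 18, and Mcm2 without Control replicate 3. Cdkn1a was called lower without NASH+Exercise replicate 18.

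The balance of the phases was described in each mouse, with no test. It was taken as the mean log2 CPM of the 17 S phase genes less that of the 23 tested G2/M genes, without Cdkn3. It was 1.96, 2.34 and 1.97 in Control and 1.65, 0.72 and 1.12 in NASH, so every NASH mouse had the lower balance. In NASH+Exercise it was 1.498, 1.96 and 2.66, which spans the Control range and overlaps NASH. The group means were 2.09 ± 0.22, 1.17 ± 0.46 and 2.04 ± 0.59 (SD, n = 3). The S phase mean alone was 1.21 ± 0.12 for Control, 2.26 ± 0.19 for NASH and 2.08 ± 0.19 for NASH+Exercise mice, and the G2/M mean was -0.88 ± 0.24, 1.09 ± 0.46 and 0.04 ± 0.57. The S phase means of both Ath diet groups were thus close to each other and above Control, and the G2/M mean of the trained mice lay between.

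**Figure D5:**
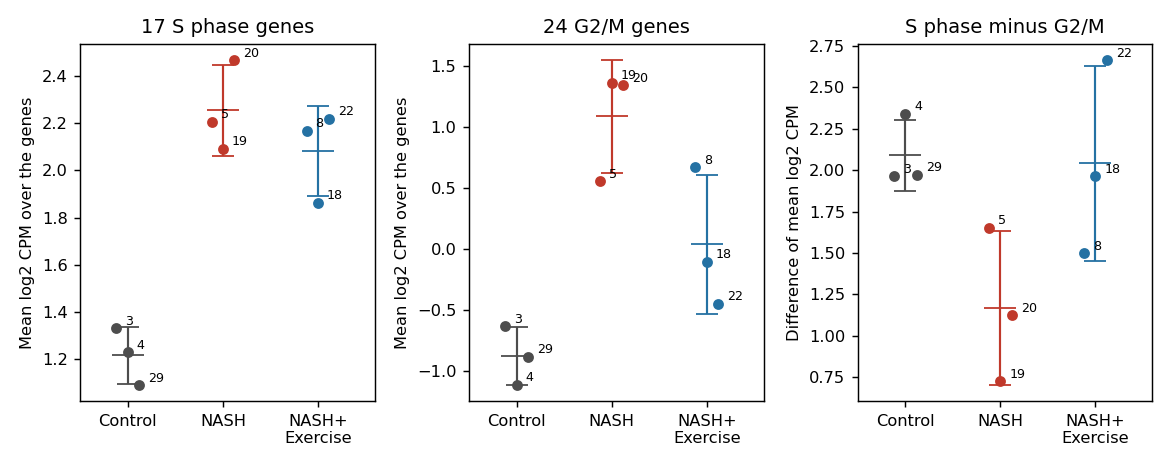
Mean log2 CPM of the 17 S phase genes (left) and the G2/M genes (middle), and their difference (right), in each mouse (points, with replicate numbers), with the mean and SD of each group. The middle panel, titled 24 G2/M genes, averages the 23 that were tested, without Cdkn3. Trained replicate 22 combines the highest S phase mean of its group (2.22) with the lowest G2/M mean (-0.45).

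Single mice shaped the G2/M values. Among NASH mice, replicate 5 was the lowest for 22 of 24 G2/M genes but for 6 of 17 S phase genes. Among trained mice, replicate 8 was the highest for 20 of 24 G2/M genes and replicate 22 the lowest for 15, while replicate 18 was the lowest for 13 of 17 S phase genes. The order of the trained mice in the 2 phases was therefore not the same.

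Markers of some other cells moved with the groups. The summed CPM of 6 macrophage markers was 66.5 to 120 over the Control mice, 632 to 706 over the NASH mice and 495 to 567 over the trained mice, and 6 of 6 were called higher in NASH. The sum of 6 T and NK cell markers was 2.58 to 4.44, 14.1 to 16.8 and 7.46 to 10.9 CPM, with 6 of 6 called, and that of 6 neutrophil markers 2.79 to 3.93, 21.9 to 27.5 and 16.3 to 27.1 CPM, with 5 of 6 called. The sum of 6 cholangiocyte markers was 36.1 to 43.9, 108 to 396 and 75.5 to 103 CPM (3 of 6 called), and the 396 was that of NASH replicate 19 alone, the others being 121 and 108. Replicate 19 was the highest of its group for 12 of 24 G2/M genes. So was replicate 20, which had the lowest cholangiocyte sum of the group (108), for 12 of 24. The sum of 6 stellate cell markers was 50.7 to 78.9, 152 to 182 and 76.5 to 117 CPM (2 of 6 called). Their log2 fold changes in NASH ran from -0.07 to 4.63 with a median of 0.43, so the sum did not stand for each marker. In NASH+Exercise against NASH, 0 markers of these lists were called. The B and plasma cell markers (0 of 6 called in NASH), the endothelial markers (1 of 6) and the erythroid markers (1 of 6) had sums that overlapped between Control and NASH. The 6 hepatocyte markers, which were high in all libraries as in liver, summed to 123785 to 148680 CPM over the Control mice, 74798 to 105189 over the NASH mice and 83779 to 110795 over the trained mice. All 6 hepatocyte markers had a log2 fold change below 0 in NASH (median -0.60), and 1 of 6 was called lower, where 3.03% of all genes were. No list had a marker at 0 in every mouse of a group. The part of these cells in the levels of the cell cycle genes was not tested, and in bulk liver more cells of a type and more RNA per cell cannot be told apart.

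Other genes of the pathway, from lists that hold none of the 44, gave a similar picture by phase. These lists too were chosen with earlier results of these data known, and the same filter was applied, so they are no separate test. Of 58 other mitosis genes 48 were tested, and 34 were called higher in NASH and 0 lower, while of 46 other replication genes 41 were tested, with 12 higher and 1 lower (all genes, 15.3% and 3.03%). The largest rises of the first list were those of Racgap1 (log2 3.53 ± 0.36), which acts in cytokinesis, Shcbp1 (3.48 ± 0.84) and Melk (3.43 ± 0.68). Those of the second were Gins2 (2.62 ± 0.40), a helicase subunit, Cdc7 (2.12 ± 0.48), the kinase that fires origins, and Asf1b (2.04 ± 0.44), a histone chaperone. Mcm10, a replication initiation factor, fell by 1.21 on the log2 scale, and was 64.9, 60.5 and 70.2 CPM in Control against 25.9, 26.6 and 32.2 CPM in NASH. In NASH+Exercise against NASH 0 genes of either list were called, and the medians without the filter were -0.84 for the mitosis and -0.18 for the replication list.

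Of 25 other G1 cyclins, CDKs and RB and E2F family genes, 4 were called higher in NASH and 1 lower, a share near that of all genes (15.3% and 3.03%). E2f2 (log2 2.86 ± 0.39), Rbl1 (2.22 ± 0.34), the pocket protein p107, and Ccnd2 (1.497 ± 0.19), cyclin D2, rose. E2f8, a repressor of E2F target genes, fell by 1.91 on the log2 scale (31.6, 25.1 and 18.01 CPM in Control, 6.86, 4.19 and 8.88 CPM in NASH). Of 20 other CDK inhibitors and p53 target genes, 7 were higher, among them Phlda3 (2.30 ± 0.43), Btg2 (1.81 ± 0.38) and Cdkn2a (1.69 ± 0.42), which encodes p16 and ARF. Gadd45b, a growth arrest and stress gene, fell by 1.64 on the log2 scale (SE 0.20), while Cdkn1a of the main set did not pass the test. In NASH+Exercise against NASH 0 genes of these lists were called.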

How the data were processed

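The authors deposited estimated counts of reads per gene, without normalization, beside FPKM and TPM values. Per the labels' processing notes, tools named were HISAT2 2.1.0, Bowtie2 2.2.5 and RSEM 1.2.8, with build GRCm38.p6. Strand use is not given in the sources used here. The deposited FPKM values were not used. The deposited TPM values served to compare levels between genes, for an alternative test and, for some genes, to compare mice without TMM. The file of NASH replicate 5 also holds the values of the other mice. Every column could be matched to a mouse of the series. The authors' files hold Entrez identifiers, and symbols came from a RefSeq table. Estimated counts were rounded, and edgeR 4.0.16 in R 4.3.3 was run on all 9 mice (filterByExpr by group with at least 10 counts and a total of 15, TMM, robust quasi-likelihood fit, with the 13619 genes tested sharing one Benjamini-Hochberg adjustment). Called genes had an adjusted p under 0.05 together with a log2 fold change beyond 1 in either direction. Values are CPM after TMM, and log2 CPM used a prior count of 2. The labels give 1 library per mouse. The members and the other lists were chosen with earlier results of these data known.

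Values in every mouse were given for Mki67, Top2a, Cdk1, Ccnb1, Ccna2, Pcna, Mcm2, Ccnd1, Cdkn1a and E2f1, and for the gene of each role with the largest absolute change in NASH against Control or in NASH+Exercise against NASH. From other pathway lists, up to 3 called genes per list and direction with the largest change were named. Ratios of reads are scaled by the effective library sizes and have exact 95% intervals, which cover counting error only. Alternatives were DESeq2 1.42.0, limma 3.58.1 on log2 TPM with a pseudocount of 1 or 0.1, glmTreat, no TMM, no filter, the 6 mice of a comparison alone, and leaving out each mouse. Counts limited to genes with a mean of at least 1 CPM or without a shared exon were chosen after seeing the data. The edgeR script was tested on simulated counts. Promoter sequences are those of RefSeq.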

Additional observations from a re-analysis of the deposited data

How the results depend on the processing

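No paired analysis was possible because the groups share no replicate numbers. Counts were taken over the genes called and medians over the log2 fold changes of the genes tested. For NASH against Control, where 29 genes were called (8 S phase, 20 G2/M), glmTreat, which tests against a log2 fold change of 1, called 13 (4 and 8), and limma on log2(TPM + 1) called 16 (9 in G2/M). Of the G2/M genes, 13 were called among those with a mean of at least 1 CPM (15 genes, median 1.68 against 2.16) and 13 among those without a shared exon. The S phase median, 0.65, was 1.01 without TMM, 1.01 by limma on log2(TPM + 0.1) and 1.34 without shared exons, and the G2/M median was 0.93 by limma on log2(TPM + 1). For NASH+Exercise against NASH, DESeq2 on 6 mice called 3 genes, all 3 in G2/M, where edgeR called 0. The S phase median, -0.18, was -0.38 without TMM, -0.35 by limma on log2(TPM + 1) and -0.44 on log2(TPM + 0.1), and the G2/M median, -1.11, was -0.60 by limma on log2(TPM + 1). For NASH+Exercise against Control, with 14 genes called, glmTreat called 4 (3 S phase, 1 G2/M) and limma on log2(TPM + 1) called 3 (2 S phase, 0 G2/M), and 3 G2/M genes were called among those with a mean of at least 1 CPM. There the S phase median, 0.86, was 0.35 by limma on log2(TPM + 1), 0.48 for genes with a mean of at least 1 CPM and 1.10 without shared exons, and the G2/M median, 1.07, was 0.28 by limma on log2(TPM + 1). The pseudocount of 1 TPM is above the level of most of these genes in Control, which shrinks their fold changes by construction.

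Leaving out each mouse in turn moved the S phase median from 0.58 to 1.10 in NASH against Control, in NASH+Exercise against NASH the G2/M median from -1.58 to -0.89 and the S phase median from -0.18 to -0.028 (without NASH replicate 20), and, in NASH+Exercise against Control, the S phase median from 0.66 to 1.04, the count of all genes from 8 to 15 and that of G2/M genes from 1 to 8. No called gene changed sign in these fits. The sign changed in genes that were not called in that comparison. In NASH against Control, Cdkn1a was 0.22 without TMM, 0.30 by limma with either pseudocount and -0.33 to 0.00680 without single mice, and Tk1 was 0.16 without TMM and 0.27 and 0.28 by limma with pseudocounts of 1 and 0.1. In NASH+Exercise against NASH, Tk1 was -0.016 and -0.019 by limma, and without single mice Ccne1 ranged from -0.061 to 0.77, Pcna from -0.12 to 0.028 and Rrm2 from -0.72 to 0.10. In NASH+Exercise against Control, Ccnb2 was 0.14 without TMM, 0.017 by edgeR on 6 mice, 0.034 and 0.073 by limma and -0.90 to 0.64 without single mice. Without single mice the ranges there were -0.35 to 2.28 for Cenpe, -0.066 to 0.39 for E2f1, -0.012 to 0.10 for Pcna, -0.079 to 0.65 for Rrm2 and -0.17 to 0.36 for Tk1. The cause of these shifts was not tested. With at most 4 reads per Control mouse, the depth limits the fold changes of Uhrf1, Cdc6, Ccnb1, Bub1, Cenpe and Cdkn3.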
